A study of Saccharomyces cerevisiae with 9 samples.

Results

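The enzymes of the tricarboxylic acid (TCA) cycle are encoded in budding yeast by nuclear genes, and the nucleosomes on 10 of them (CIT1, ACO1, IDH1, IDH2, KGD1, KGD2, LSC1, LSC2, FUM1 and MDH1) were compared between wild-type cells and cells without Ioc3. The genes were chosen by pathway after earlier results from these data had been seen, so their values are a description without a test. They are 10 of the 4950 protein-coding genes longer than 560 bp that had a called nucleosome. Every nucleosome call whose WT dyad, the midpoint of the nucleosome, lay between 60 bp upstream of the start codon and the stop codon was taken, which gave 90 of the 51917 paired calls. MNase-seq had been performed on Saccharomyces cerevisiae of the BY4742 background with WT ISW1a, with a deletion of IOC3 (ioc3Δ) and with a truncation of the HLB domain of Ioc3 (ioc3ΔcHLB), from 3 cultures per strain grown in the rich glucose medium YPD. Cells were fixed with formaldehyde, their chromatin was cut with micrococcal nuclease, and DNA of mononucleosome size was sequenced. The labels give a FLAG tag for all strains, ioc3Δ included. The deposited calls were made on the merged samples of each strain, so no spread between cultures is known for any value below.

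In the TCA cycle, acetyl-CoA is condensed with oxaloacetate to citrate, and citrate is oxidized stepwise in the mitochondrial matrix back to oxaloacetate, which yields NADH, succinate and intermediates for amino acid synthesis. Yeast that grows on glucose keeps many of these genes under glucose repression, and the Hap2/3/4/5 complex and the Rtg1/Rtg3 factors activate them when respiration or precursors are needed. ISW1a is a chromatin remodeler made of the ATPase Isw1 and Ioc3. It slides nucleosomes along DNA and sets the distance between neighbors. An ordered array of nucleosomes starts near the 5′ end of most yeast genes, and its members are numbered +1, +2 and so on in the direction of transcription.

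Each call has a dyad position, a mean dyad, the standard deviation (SD) of its dyads in bp, and an occupancy, which is a signal relative to the mean genome-wide coverage. A shift is the ioc3Δ dyad minus the paired WT dyad in the direction of transcription, so that positive values lie downstream. Occupancies were whole multiples of 0.138 in WT and of 0.199 in ioc3Δ, each taken as 1 fragment. On that scale the 90 calls held 89080 WT fragments (142 to 14289 per call, median 572) and 72967 ioc3Δ fragments (58 to 13778, median 343.5). Counting error alone gave the shift of the mean dyad a standard error (SE) of 0.217 to 5.68 bp, with a median of 1.98 bp. Of the 90 mean-dyad shifts, 61 (67.8%) were larger than 3 SE, against 50.0% of 47317 calls in all genes. All 51917 paired calls had medians of 422 WT and 252 ioc3Δ fragments, so the deeper member calls pass this cutoff more easily. As a check of the label, the coding region of IOC3 kept 0.574% of its WT occupancy in ioc3Δ. The table labelled ioc3ΔcHLB kept 0.680% there although the truncation leaves most of the gene. Of its 89 matched member calls, 57 (64.0%) had an occupancy within 1% of that in ioc3Δ, as did 60.4% of all 50925 matched calls. By contrast, 2 member calls of ioc3Δ came this close to WT. For this reason the pair of mutant tables counts as 1 sample here, and values of the second are given under its label.

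The DNA under 4 calls shows what such shifts amount to. Each stretch is the reference sequence (sacCer3) of the coding strand, 5′ to 3′, with the bases from the WT dyad to the ioc3Δ dyad in capitals and 73 bases on either side. Both ends of the span are counted, so the capitals run to 1 base more than the shift. The first is the +3 nucleosome of KGD1, whose dyad lay 59 bp further downstream in ioc3Δ. The other 3 are the largest downstream shift of the set, the largest upstream shift, and a call of LSC1 that did not move, where the single capital is the dyad of both strains.
KGD1 call 3, chrIX:123035-123240, plus strand: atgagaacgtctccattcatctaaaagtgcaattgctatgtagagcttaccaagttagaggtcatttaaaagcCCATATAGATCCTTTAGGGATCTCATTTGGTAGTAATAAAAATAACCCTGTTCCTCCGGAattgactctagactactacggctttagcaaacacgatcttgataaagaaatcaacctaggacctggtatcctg
CIT1 call 5, chrXIV:630284-630494, minus strand: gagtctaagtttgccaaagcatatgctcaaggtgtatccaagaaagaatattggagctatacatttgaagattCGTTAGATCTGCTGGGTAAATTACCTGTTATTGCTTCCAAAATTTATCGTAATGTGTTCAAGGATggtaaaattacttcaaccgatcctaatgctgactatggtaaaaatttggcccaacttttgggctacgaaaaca
ACO1 call 8, chrXII:736028-736236, minus strand: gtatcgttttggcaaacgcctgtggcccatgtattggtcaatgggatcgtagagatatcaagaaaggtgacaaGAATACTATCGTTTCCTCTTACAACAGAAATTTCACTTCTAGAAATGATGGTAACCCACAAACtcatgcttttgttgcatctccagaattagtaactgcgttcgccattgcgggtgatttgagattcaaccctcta
LSC1 call 6, chrXV:593780-593926, plus strand: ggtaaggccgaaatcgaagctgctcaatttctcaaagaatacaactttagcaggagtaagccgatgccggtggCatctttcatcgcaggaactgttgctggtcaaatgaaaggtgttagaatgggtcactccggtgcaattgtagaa
All 4 lie inside the coding regions. The span between both dyads had a GC content of 38.3% in KGD1, 35.4% in CIT1 and 34.9% in ACO1. Over the 90 calls, the 147 bp around the WT dyad had a median GC content of 41.8%, against 39.5% over the 47317 calls of all genes longer than 560 bp.

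At +1 to +4 the median shift of these genes lay downstream in ioc3Δ, and toward the 3′ end it lay slightly upstream. At +1, +2, +3 and +4 the median shift was 8.5, 19.5, 9.5 and 4 bp (10 genes at each position), against 2, 4, 4 and 3 bp over 4863, 4687, 4418 and 3996 genes. Taken from the mean dyads the medians were 11.5, 22.5, 13.5 and 10 bp, and in the table labelled ioc3ΔcHLB they were 9, 12.5, 7 and 2 bp. The +1 dyad lay downstream in 10 of 10 genes, where 67.8% of all genes had it downstream. The +2 dyad did so in 9 of 10 genes, against 78.7% of all genes. The exception was LSC1, at -3 bp by the called dyad but at 6 ± 0.803 bp (counting SE) by the mean dyad. In 5 genes (CIT1, ACO1, IDH1, KGD1 and FUM1) the median shift over +1 to +4 reached 10 bp, a size seen in 13.1% of the 3996 genes with all 4 positions. With each coding region divided into 3 equal parts, the median shift was 15 bp in the 5′ part (32 calls), 1 bp in the middle (27 calls) and -3 bp in the 3′ part (31 calls), and over all genes it was 3, 0 and -2 bp. Without KGD1 the median of the 5′ part was 10 bp. Because the genes were chosen with this contrast known, nothing is read from the distance between their values and those of all genes.

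Shifts of at least 10 bp were counted in both directions. Downstream, 23 of the 90 calls (25.6%) reached this size, against 15.7% of all calls, and 19 of these 23 were among the 32 calls of the 5′ parts (59.4%, against 20.0%). They came from 7 genes, and LSC1, LSC2 and MDH1 had none. Upstream, 10 calls (11.1%) reached it, against 13.3% of all calls. In the 3′ parts it was 7 of 31 calls (22.6%), against 22.7% of all calls there. KGD1 alone supplied 5 of the 10 upstream calls, and without it 5 of 73 calls remained, 2 of them among the 25 calls of the 3′ parts. The last call before the stop codon lay upstream in 8 of 10 genes, where 62.9% of all genes had it upstream. Its median shift over the 10 genes was -4 bp, against -2 bp over all genes. Over all 90 calls the median shift was 3 bp, with quartiles of -3 and 9.75 bp, and over all genes 1 bp with quartiles of -4 and 6 bp. When only the 54 calls with both neighbors over 150 bp away were counted, 13 (24.1%) were shifted downstream and 4 (7.41%) upstream by 10 bp or more, against 13.3% and 11.3% of 30491 such calls in all genes. Of the 43 calls with a WT SD at or under the genome median, 7 (16.3%) and 4 (9.30%) reached it, against 13.03% and 6.07% of 22908, and the median shift of these 43 calls was 0 bp.

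**Figure D1:**
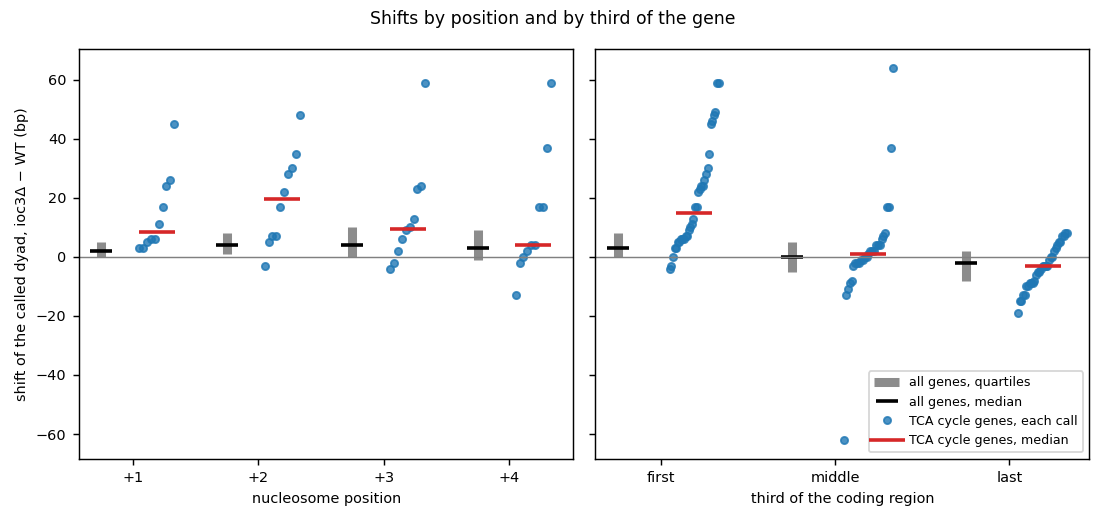
Shift of the called dyad (ioc3Δ minus WT, bp, positive downstream) at positions +1 to +4 (left) and in the first, middle and last part of the coding region (right). Blue points are single calls of the 10 TCA cycle genes, red lines their medians, and black lines and grey bars the median and quartiles of all genes; the red line stands highest at +2, at 19.5 bp, and falls from 15 bp in the 5′ part to -3 bp in the 3′ part.

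Citrate synthase, encoded by CIT1 (YNR001C, chromosome XIV, 629622 to 631061, minus strand), carries out the entry step of the cycle. All 8 of its calls lay downstream in ioc3Δ. The shifts from the start to the stop codon were 17, 22, 9, 17, 64, 3, 8 and 8 bp. The fifth call moved furthest of all 90, from 630421 in WT to 630357 in ioc3Δ, and its mean dyad by 40 ± 3.39 bp (counting SE, 339 and 168 fragments). That call was broad in both strains, with an SD of 37.1 bp before and 35.3 bp after the loss of Ioc3. In WT a gap of 452 bp without a paired call followed it, which measured 391 bp in ioc3Δ. The occupancy of the +1 call went from 30.4 in WT to 13.7 in ioc3Δ, and it lies 25 bp upstream of the start codon. The last call of CIT1 rests on 142 and 58 fragments, and its called dyad (8 bp) and mean dyad (-18 ± 5.68 bp) moved in opposite directions. The median shift of CIT1 over +1 to +4 was 17 bp, a value met or passed by 164 of 3996 genes (4.10%).

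Aconitase, the product of ACO1 (YLR304C, chromosome XII, 735212 to 737548, minus strand), turns citrate into isocitrate and also has a role in keeping mitochondrial DNA. Its 13 calls fell into a downstream-shifted 5′ group and a 3′ group with small shifts, with a single large upstream shift in between. The first 5 calls were shifted by 3, 35, 24, 0 and 49 bp. The eighth call was at 736101 in WT and at 736163 in ioc3Δ, a shift of -62 bp by the dyad and of -62 ± 3.68 bp by the mean dyad. It was the largest upstream shift of the set, in a call with SDs of 43.7 and 38.5 bp in WT and ioc3Δ. In ioc3Δ its dyad lay 148 bp from that of the seventh call, the smallest distance between neighboring calls. The other 7 calls were shifted by -11 to 7 bp. The fourth call kept its dyad at 736943 while its mean dyad moved by 11 ± 1.81 bp and its occupancy went from 79.5 to 121. As the second call moved and the first hardly did, the distance from +1 to +2 grew from 187 to 219 bp, the largest change of this distance among the 10 genes.

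**Figure D2:**
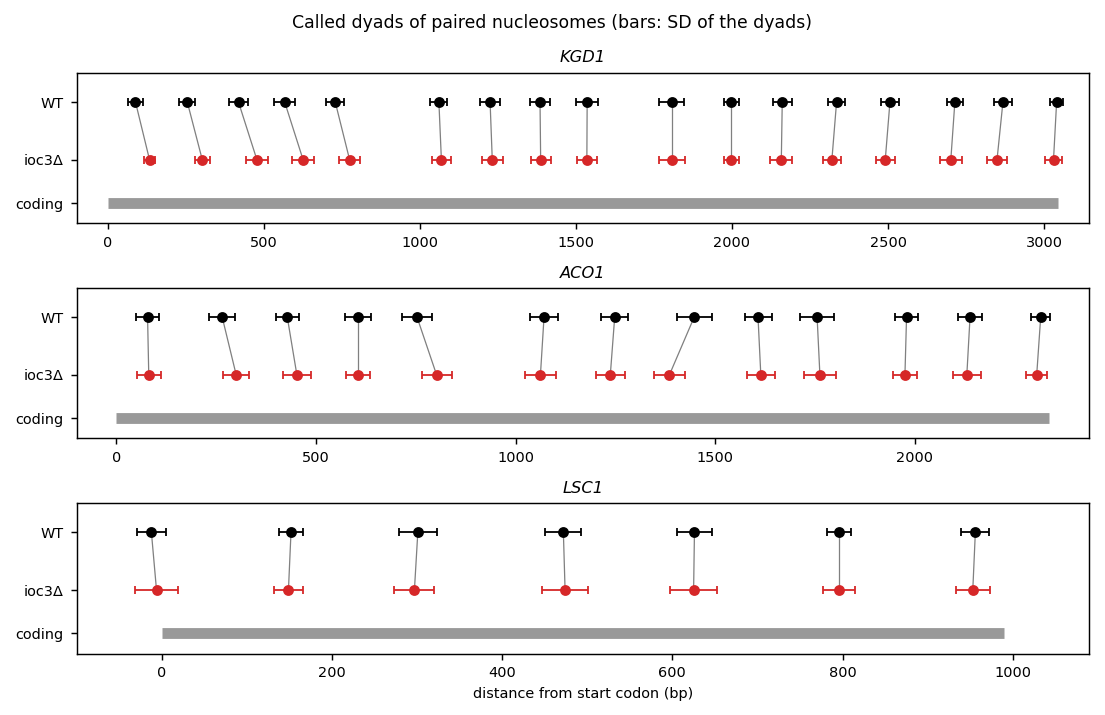
Called dyads of KGD1, ACO1 and LSC1 in WT (black) and ioc3Δ (red) against the distance from the start codon in bp, with horizontal bars for the SD of the dyads and grey lines joining paired calls; the grey bar is the coding region. The first 5 calls of KGD1 lean downstream by 45 to 59 bp and its last 5 upstream by 10 to 19 bp, ACO1 has single large moves both ways, and no dyad of LSC1 moved by more than 6 bp.

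The NAD-dependent isocitrate dehydrogenase is built from the regulatory subunit Idh1 and the catalytic subunit Idh2. In IDH1 (YNL037C, chromosome XIV, 557920 to 559002, minus strand) the first 4 calls were shifted by 24, 17, 23 and 37 bp and the last 3 by 5, 5 and -5 bp. The median over +1 to +4 was 23.5 bp, met or passed by 63 of 3996 genes (1.58%). The +1 call of IDH1 had a high occupancy that was higher still in ioc3Δ (455 and 924), whereas the +2 call went from 155 to 65.1. That +2 call was broad (SD 38.6 and 40.5 bp), and its mean dyad moved by 40 ± 2.52 bp while the called dyad moved by 17 bp. In IDH2 (YOR136W, chromosome XV, 580250 to 581359, plus strand) the shifts were 6, 28, 10, 4, 4, -9 and 4 bp. Its +2 dyad moved from 580425 to 580453, so that the distance from +1 to +2 grew from 181 to 203 bp. In IDH1 this distance went from 155 to 148 bp, the smallest between neighboring calls. Both subunits of 1 enzyme thus had downstream shifts at +1 and +2 but of different extent along the gene, with a median over +1 to +4 of 8 bp in IDH2, which 806 genes (20.2%) met or passed.

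The 2-oxoglutarate (alpha-ketoglutarate) dehydrogenase complex oxidizes 2-oxoglutarate to succinyl-CoA, with Kgd1 as its E1 and Kgd2 as its E2 component. KGD1 (YIL125W, chromosome IX, 122689 to 125733, plus strand) had the most displaced 5′ array of the 10 genes. Its first 5 calls lay at 122778, 122944, 123108, 123256 and 123418 in WT and at 122823, 122992, 123167, 123315 and 123464 in ioc3Δ. All 5 lay downstream, by 45, 48, 59, 59 and 46 bp, and the distances between them were 166, 164, 148 and 162 bp in WT and 169, 175, 148 and 149 bp in ioc3Δ. No neighboring calls of these tables lie closer than 148 bp, and 8.93% of all distances in WT and 13.4% in ioc3Δ are at this limit (7 and 14 of the 80 distances within the 10 genes), so the fourth dyad is as close to the third as a call can be in both strains. The mean dyads of the same calls moved by 25 ± 1.39, 31 ± 1.26, 68 ± 3.09, 48 ± 3.79 and 30 ± 3.09 bp (counting SE), so the size depends on how the center is taken and the direction did not. Between the mean dyads the distances were 164, 153, 145 and 177 bp in WT and 170, 190, 125 and 159 bp in ioc3Δ, so the spacing within the group was not kept by this measure. Only 3 of 3996 genes, KGD1 among them, had a median over +1 to +4 of at least its 53.5 bp (0.0751%), and 28 of 4687 genes (0.597%) reached its +2 shift. The displaced group ended at a stretch without a paired call, where the distance from call 5 to call 6 was 332 bp in WT and 294 bp in ioc3Δ. The next 7 calls were shifted by -3 to 8 bp. The last 5 calls of KGD1 lay upstream by 10 to 19 bp (-15, -15, -13, -19 and -10 bp), and their mean dyads by 8 to 16 bp. The call shifted by -19 bp also lay at the limit of 148 bp from the call before it in ioc3Δ.

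KGD2 (YDR148C, chromosome IV, 753675 to 755066, minus strand) showed the same order of signs at a smaller scale. Its 9 calls were shifted by 11, 7, 13, 4, 6, 1, 0, -13 and -6 bp, with a median over +1 to +4 of 9 bp (649 genes, or 16.2%, met or passed it). The call shifted by -13 bp lay 148 bp from the call before it in ioc3Δ, again at the limit. The +4 call of KGD2 had the highest occupancy of the set, 1973 in WT and 2745 in ioc3Δ, with 14289 and 13778 fragments. It was narrow (SD 17.2 and 19.1 bp) and lies over DNA with a GC content of 56.5%, the highest of the 90 calls. Its mean dyad moved by 4 ± 0.217 bp.

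**Figure D3:**
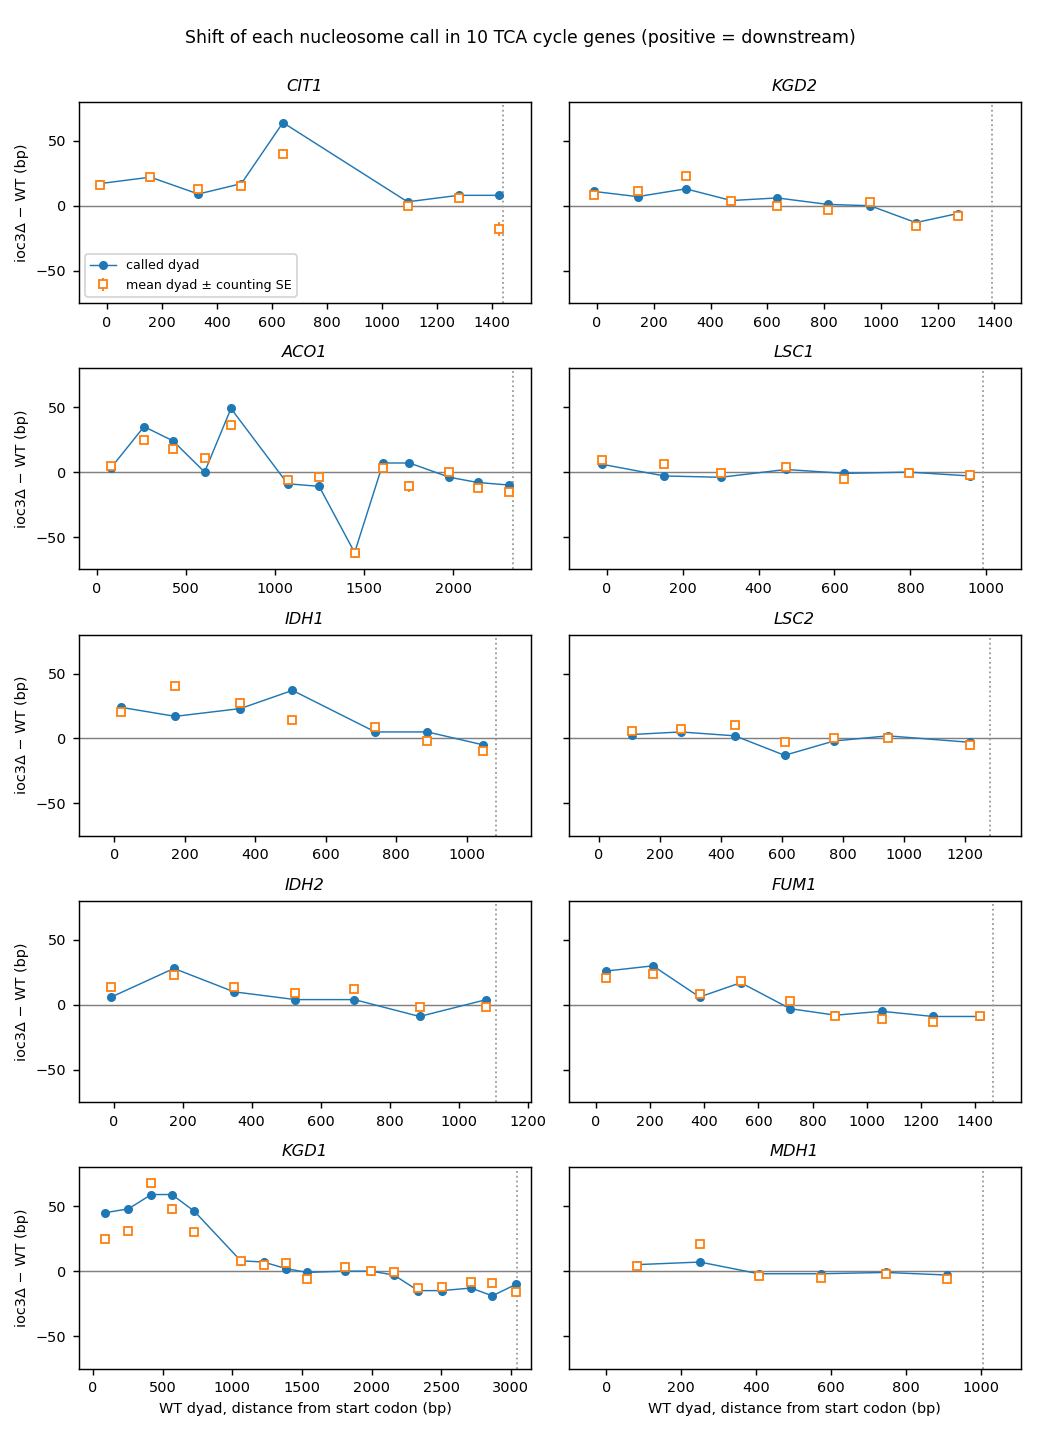
Shift of every call in each of the 10 genes (ioc3Δ minus WT, bp, positive downstream) against the distance of the WT dyad from the start codon in bp; blue circles are called dyads, orange squares mean dyads with their counting SE, and the dotted line is the stop codon. KGD1 starts at 45 to 59 bp and ends at -10 to -19 bp, whereas LSC1 and MDH1 stay between -4 and 7 bp by the called dyad.

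Succinyl-CoA ligase makes the only substrate-level ATP of the cycle and consists of an alpha subunit (Lsc1) and a beta subunit (Lsc2). Neither gene had a call shifted downstream by 10 bp. In LSC1 (YOR142W, chromosome XV, 593057 to 594046, plus strand) the 7 shifts were 6, -3, -4, 2, -1, 0 and -3 bp. The median over +1 to +4 was -0.5 bp, and 3463 of 3996 genes (86.7%) met or passed it. The sixth call of LSC1 was at 593853 in both strains and was sharp, with SDs of 14.4 and 18.9 bp. In LSC2 (YGR244C, chromosome VII, 978036 to 979319, minus strand) the shifts were 3, 5, 2, -13, -2, 2 and -3 bp. The fourth call moved by -13 bp as a dyad but by -3 ± 1.37 bp as a mean dyad, and in the table labelled ioc3ΔcHLB its dyad moved by 1 bp. In ioc3Δ its dyad lay 148 bp from that of the third call, the smallest distance between neighboring calls. The +2 call of LSC2 had the highest occupancy ratio of the set, as its occupancy went from 109 in WT to 253.

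Fumarase (FUM1, YPL262W, chromosome XVI, 47336 to 48802, plus strand) hydrates fumarate to malate. Its 9 calls ran from downstream to upstream along the gene, with shifts of 26, 30, 6, 17, -3, -8, -5, -9 and -9 bp. The median over +1 to +4 was 21.5 bp, met or passed by 86 of 3996 genes (2.15%). Among the +1 dyads, that of FUM1 differed most between the mutant tables. It lay 26 bp downstream in ioc3Δ and 2 bp downstream in the table labelled ioc3ΔcHLB, and its mean dyad in ioc3Δ moved by 21 ± 2.84 bp. The +2 dyad was 30 and 31 bp downstream in these tables. Mitochondrial malate dehydrogenase (MDH1, YKL085W, chromosome XI, 279123 to 280127, plus strand) closes the cycle. Its 6 shifts were 5, 7, -2, -2, -1 and -3 bp. The exception by another measure was its +2 call, whose mean dyad moved by 21 ± 0.909 bp while the called dyad moved by 7 bp, and whose occupancy went from 236 to 475. The +3 call of MDH1 was the second highest in occupancy, 1226 in WT and 1512 in ioc3Δ.

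In the table labelled ioc3ΔcHLB the first calls of KGD1 were shifted by 43, 50 and 55 bp, the fourth had no match, and the fifth was shifted by 20 bp. The +1 to +4 shifts there were 23, 10, 7 and 17 bp in CIT1, 5, 24, 27 and 2 bp in ACO1, 11, 15, 15 and 29 bp in IDH1, and 11, 30, 7 and 2 bp in IDH2. The +2 shift was 8 bp in KGD2, 5 bp in LSC1, 4 bp in LSC2 and 9 bp in MDH1. Single broad 3′ calls differed more between the tables. The last 2 calls of CIT1 were at 8 bp each in ioc3Δ and at -32 bp each in the other table, and call 10 of ACO1 was at 7 and at 61 bp. As both tables share the WT calls and were counted as 1 sample, these values show how far a called dyad depends on the table and are no second measurement.

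Few calls lay just outside the window, and the one shifted by 10 bp or more was past the stop codon of IDH1. The first call inside it lay between 25 bp upstream and 107 bp downstream of the start codon. Within 400 bp upstream of the start codon there was a further call in CIT1 (at -202 bp, shift 4 bp) and in LSC2 (at -379 bp, shift -1 bp). Past the stop codon, the next call within 400 bp was shifted by 14 bp in IDH1, by -4 bp in KGD2, by -1 bp in IDH2, and by 0 bp in LSC2, FUM1 and MDH1. The call past IDH1 lay 172 bp from its stop codon, where the coding region of a convergent neighbor is 136 bp away. In the direction of that neighbor the same call moved upstream.

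By the called dyads, the distance from +1 to +2 changed little in most of the genes. In KGD1, CIT1 and FUM1 both dyads had moved downstream by similar amounts. In LSC2 (3 and 5 bp) and MDH1 (5 and 7 bp) both called dyads had moved little, and in LSC1 they moved in opposite directions (6 and -3 bp). The mean dyads at +1 and +2 moved by 4 and 21 bp in MDH1, and by 9 and 6 bp, both downstream, in LSC1. The distance had a median of 167.5 bp in WT, which became 170 bp in ioc3Δ. Between the called dyads it was longer in 7 genes and shorter in 3, with changes from -9 bp in LSC1 to 32 bp in ACO1. Among those 3, the mean dyads at +1 and +2 moved by 20 and 40 bp in IDH1 and by 8 and 11 bp in KGD2. In IDH1 and KGD2 the sign of the change thus depends on how the center is taken. The median change was 2.5 bp (6 bp between the mean dyads). Over all genes the distance went from 167 to 169 bp, and 60.5% of the genes had a longer distance. In CIT1 it went from 184 to 189 bp, in FUM1 from 172 to 176 bp and in KGD1 from 166 to 169 bp. In KGD2 it went from 154 to 150 bp, in LSC1 from 164 to 155 bp, in LSC2 from 161 to 163 bp and in MDH1 from 169 to 171 bp.

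Occupancies were compared after the ioc3Δ to WT ratio of each call was scaled by 0.892, the genome-wide median of this ratio. The member calls had a median scaled ratio of 1.02, against 1.01 for all calls, and the direction of this value depends on the scaling (0.913 without it, and 0.773 when the ratio of summed occupancies is used instead). A ratio of at least 1.5 was found in 12 calls (13.3%, against 11.4% of all calls) and a ratio of at most 1/1.5 in 9 of 90 calls, against 8.91%. Without scaling the same counts were 7 and 11 (6.77% and 16.1% of all calls), and with the ratio of sums 4 and 24 (2.81% and 32.9%), so the balance of higher and lower calls turns with the scaling. At +2, 4 of 10 genes had a ratio of at least 1.5, namely KGD1 (1.62), LSC2 (2.60), FUM1 (2.18) and MDH1 (2.26), against 16.1% of all genes. Under both other scalings KGD1 was below 1.5 (1.44 and 1.22) and the other 3 remained. They include a gene with a large +2 shift of the called dyad (FUM1) and genes with a small one (LSC2, MDH1). The +2 mean dyad moved by 24 bp in FUM1, 7 bp in LSC2 and 21 bp in MDH1. The median at +2 was 1.30 against 1.09 for all genes, 1.16 against 0.971 without scaling and 0.978 against 0.821 with the ratio of sums. The lowest ratio, 0.472, was at +2 of IDH1, next to the +1 call of the same gene with 2.28. The first calls of CIT1 (0.508) and IDH2 (0.541) and the last calls of ACO1 (0.516), IDH1 (0.572) and CIT1 (0.661) were also under 1/1.5. In this order, the 147 bp around their WT dyads had a GC content of 27.9%, 31.3%, 29.3%, 36.1% and 36.7%. At +2 it was 47.6% in KGD1, 46.3% in LSC2, 46.9% in FUM1, 46.3% in MDH1 and 40.8% in IDH1. The median over the 90 calls was 41.8%. Whether the occupancy ratio follows GC content was not tested.

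**Figure D4:**
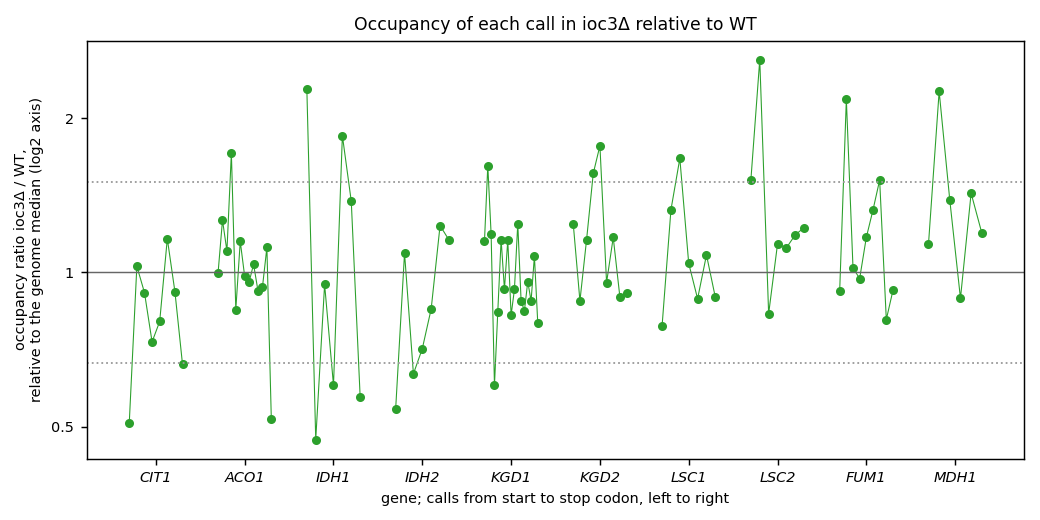
Occupancy of each call in ioc3Δ relative to WT, scaled by the genome-wide median of this ratio (log2 axis), with the calls of each gene ordered from the start codon to the stop codon. Dotted lines mark 1.5 and 1/1.5; the highest point is the +2 call of LSC2 at 2.60 and the lowest the +2 call of IDH1 at 0.472.

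The dyads of a call scattered more widely in ioc3Δ, as they did genome-wide. The SD was higher in 69 of the 90 calls (76.7%, against 77.0% of all calls) by a median of 2.32 bp, against 2.39 bp. In WT the genes differed in how sharply their 5′ nucleosomes were placed. The median SD over +1 to +4 was 17.01 bp in MDH1, 18.5 bp in LSC2, 19.2 bp in LSC1, 21.9 bp in IDH2, 22.4 bp in KGD2, 25.4 bp in FUM1, 26.0 bp in CIT1, 27.5 bp in both IDH1 and KGD1, and 30.7 bp in ACO1. The 5 genes with the broadest WT calls were the 5 with a median shift of the called dyads of at least 10 bp. The match depends on this measure, as the mean dyads of IDH2 moved by 14, 23, 14 and 9 bp at +1 to +4. Across the 10 genes the SD and the shift had a Spearman rho of 0.830 and a Pearson r of 0.667, given as a description because the shift is computed from the same WT calls. Over the 3996 genes rho was -0.0305, and the median shift in 4 equal groups of genes from sharp to broad was 3, 4, 3.5 and 2.5 bp. WT occupancy and GC content followed the shift less closely in the 10 genes (rho of -0.200 and -0.280).

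**Figure D5:**
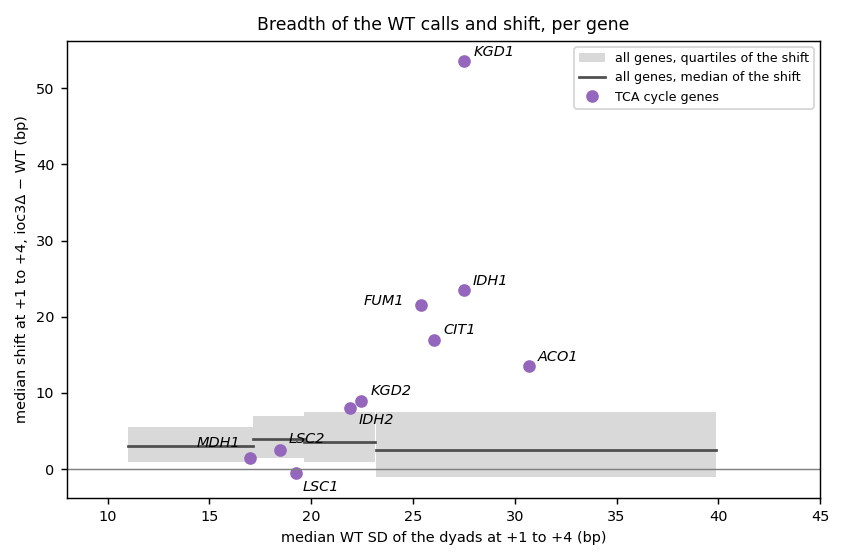
Median shift over +1 to +4 (ioc3Δ minus WT, bp) against the median SD of the WT dyads at these positions (bp) for the 10 TCA cycle genes (purple points); grey boxes and dark lines are the quartiles and medians of all genes in 4 equal groups by SD. The 5 genes above 25 bp in SD lie between 13.5 and 53.5 bp in shift, while the medians of all genes stay between 2.5 and 4 bp.

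The binding sequences of the factors that activate these genes were searched in the 300 bp upstream of each start codon, on both strands. The letters CCAAT, the core of the Hap2/3/4/5 element, were found in 7 of the 10 genes (9 sites) and in 41.8% of all 6001 protein-coding genes. The letters GTCAC, the core of the Rtg1/Rtg3 element, were found in 3 genes (4 sites) and in 26.5% of all genes. KGD1 and IDH2 are shown here as the gene with the most displaced array and as the site nearest to a nucleosome, in the direction of the gene, with the motif or its reverse complement in capitals.
KGD1 CCAAT, chrIX:122426-122454, plus strand: cggtttagattcATTGGgtgtgtactatt
KGD1 GTCAC, chrIX:122516-122544, plus strand: aattttgtttctGTCACatagtcgcagca
IDH2 CCAAT, chrXV:580149-580177, plus strand: gtgcatgacattATTGGatacactttttc
All 13 sites lay more than 73 bp from any paired WT dyad, as did 62.8% of the CCAAT and 66.9% of the GTCAC sites of all genes. The nearest was the IDH2 site at 81 bp from the WT dyad and 87 bp from the ioc3Δ dyad. A match of these letters is a description and shows no binding.

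Of the other genes of the pathway, taken from a list by function, 22 of 26 measured had all positions from +1 to +4. The median over these positions reached 10 bp in 2 of them, SDH1 (17 bp) and MDH3 (15.5 bp). It did so in 5 of the 10 TCA cycle genes and in 13.1% of 3996 genes. By the median over all calls of a gene, 0 of the 26 and 2 of the 10 reached 10 bp (CIT1 and IDH1). The share of all genes that reach it by this measure was not computed, so nothing is read from these counts. The remaining cycle subunits measured were SDH1, SDH2 and SDH3 of succinate dehydrogenase, and LPD1, the dihydrolipoamide dehydrogenase that also serves the 2-oxoglutarate complex. They had a median shift of 0.5 bp over 26 calls. Of these, 6 (23.1%) were shifted downstream and 4 (15.4%) upstream by at least 10 bp, against 15.7% and 13.3% of all calls. Their gene medians ran from -2 bp in SDH2 to 2 bp in SDH3. In SDH1, the flavoprotein subunit, the +1 to +4 shifts were 3, 6, 28 and 28 bp. The 6 genes for the entry of pyruvate had a median of -1 bp over 65 calls, with 7 (10.8%) downstream and 6 (9.23%) upstream. Their gene medians ran from -4 bp in PDB1 to 2.5 bp in PDA1, which encode the beta and alpha subunits of pyruvate dehydrogenase E1. The 10 isozymes and glyoxylate cycle genes had a median of 0 bp over 85 calls, with 7 (8.24%) downstream and 15 (17.6%) upstream. Their gene medians ran from -4 bp in CIT2, the peroxisomal citrate synthase, to 5 bp in MLS1, the malate synthase. In MDH3, the peroxisomal malate dehydrogenase, the +1 to +4 shifts were 0, 12, 29 and 19 bp. The 6 regulators measured had a median of 0 bp over 60 calls, with 10 downstream and 9 upstream, from -4 bp in RTG2 to 3 bp in RTG3. At +2 the medians of these lists were 7, 5, 4 and 3 bp in this order, against 19.5 bp in the 10 TCA cycle genes and 4 bp over all genes. At +3 they were 12, 2, -1 and 8 bp, against 9.5 and 4 bp. At +4 they were 23, 1, 2 and 8 bp, against 4 and 3 bp. The remaining cycle subunits, with 3 genes at +3 and +4, thus had higher medians there than the 10 TCA cycle genes.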

How the data were processed

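MNase-seq of 3 WT, 3 ioc3Δ and 3 ioc3ΔcHLB samples was analysed from the deposited call tables. The submitters' notes name sacCer3 and Bowtie2 2.0. The authors set a dyad at the center of every read pair, normalized to the mean genome-wide coverage, called nucleosomes on merged samples and paired WT and mutant rows at an overlap of at least 73 bp. The handling of reads with several matches is not given in the sources used here. The deposited columns are dyad and mean dyad (bp), a score (the SD of the dyads, bp) and occupancy (a signal relative to genome-wide coverage). Samples were grouped by genotype.

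Of 53840 rows, 1911 repeats and 12 rRNA-locus calls (chromosome XII, 451275 to 469084) were left out. Coding regions were those of the R64 RefSeq annotation. The +1 call was the first from 60 bp upstream to 120 bp downstream of the start codon, and each next call lay 110 to 230 bp further. Shifts of at least 10 bp and scaled occupancy ratios of at least 1.5 or at most 1/1.5 were counted. The counting SE of a mean-dyad shift was taken from the SDs and fragment numbers of both strains. It covers counting error only, and fragments amplified by PCR are not independent molecules. With 1 merged library per strain no test was run, the unequal-variance comparison of the methods included. The members and lists were chosen with earlier results of these data known. Named were all 10 genes, their first 4 calls, their largest shifts, and the highest and lowest occupancy ratio; other calls, SDH1 and MDH3 were named after their values were seen. Alternatives covered the dyad column, the mutant table, means, filters on occupancy and SD, thresholds and scaling. Leaving out a gene, the distance to neighbors, the parts of the coding region and the counts of occupancy calls by scaling were chosen after seeing the data. The comparison of WT breadth with the shift was not among the planned results. The calculation was tested on simulated data. Python 3.11.15, numpy 2.4.6, pandas 2.3.3 and matplotlib 3.10.9 were used.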

Additional observations from a re-analysis of the deposited data

How the results depend on the processing

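No paired analysis was possible because the deposited columns hold merged calls without replicates, so none could be left out either. The median shift of the member calls was 3 bp, their mean 6.48 bp, and the median 0 bp among calls with a WT SD at or under the genome median. With the mean dyad, the +4 median went from 4 to 10 bp, the change of the +1 to +2 distance from 2.5 to 6 bp, the median of the 3′ part from -3 to -6 bp and that of IDH2 from 4 to 12 bp. In the table labelled ioc3ΔcHLB the +2 median went from 19.5 to 12.5 bp and the +4 median from 4 to 2 bp. As means, +1 and +4 were 14.6 and 12.5 bp. The 23 calls shifted downstream by 10 bp or more became 7 with that SD filter and 13 among calls with neighbors over 150 bp away, and 40 were shifted by 5 bp or more. Both filters also leave fewer calls. The 10 upstream calls became 4 under each of these filters, 19 at 5 bp, 4 at 15 bp and 5 without KGD1. The shares of all calls at 5 and at 15 bp were not computed, so the counts at these sizes have no baseline. The median occupancy ratio of 1.02 became 0.913 without scaling and 0.773 with the ratio of sums. Taken from the table labelled ioc3ΔcHLB, the median SD difference of 2.32 bp became 3.90 bp. LSC1 went from a median shift of -1 to 3 bp in that table, and that of FUM1 from -3 to 3 bp with the mean dyad; the cause of either was not tested. Called and mean dyads moved the same way in 73 calls and opposite ways in 7, with 10 at 0 by either. Depth limits single calls most at the 3′ end of CIT1, where 58 ioc3Δ fragments gave an SE of 5.68 bp.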
